A study of Mus musculus with 1279 samples.

Results

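2 groups of cardiac fibroblasts from the adult mouse, the cells labelled cluster 2 and the cells labelled cluster 4, were compared strain by strain. The members were taken by their cluster label alone, which gave 452 of the 1279 heart cells. Every cell came from a male mouse of 10 to 20 weeks. The C57BL6 mice carried no reporter. The others were reporter mice, in which a fluorescent protein was driven by sequences of the gene in the strain's name (PdgfrbGFP, Cspg4dsRED, Acta2GFP). Per the study's methods, single cells positive for a reporter or for an antibody against PDGFR-alpha or PDGFR-beta, and negative for the endothelial protein CD31, were sorted into 384-well plates and sequenced with Smart-seq2. This is a full-length cDNA method without molecular identifiers, so intervals and limits on counts cover counting error only. PdgfrbGFP gave 49 cells of cluster 2 and 53 of cluster 4, Cspg4dsRED 8 and 13, Acta2GFP 38 and 40, and C57BL6 all the others. Strain, sort and plate cannot be told apart, because each reporter strain came from 1 plate. The labels name no animal, so p-values measure the spread between strains.

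Fibroblasts build and turn over the collagen-rich matrix of the heart. Some lie between the muscle fibres, close to capillaries, where they share basement membrane components with the vessel wall, and others sit in the connective tissue sheath around larger vessels, the adventitia. Adventitial fibroblasts of many organs are known for the surface proteins CD34, PI16 and DPP4 and for genes of elastic microfibrils, whereas resident fibroblasts of the tissue interior carry more lipid handling and basement membrane genes.

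Counts were summed over the cells of a cluster within each strain, which gave 8 sums of 4065068 to 45312928 counts. The Cspg4dsRED sums were the smallest. Values below are CPM, the counts of a gene scaled to a sum of 1000000, in the order C57BL6, PdgfrbGFP, Cspg4dsRED and Acta2GFP where 4 are listed, and log2 fold changes are cluster 2 minus cluster 4 from edgeR with strain as a block. Single cells held 52501 to 1060179 counts in cluster 2 and 50417 to 1249955 in cluster 4. The median count per cell was 337882 ± 84587 in cluster 2 and 340484 ± 41823 in cluster 4 (SD, n = 4 strains, two-sided exact permutation p = 1). After thinning each cell to 50000 counts, 3166 ± 835 genes were detected in cluster 2 and 3388 ± 822 in cluster 4 (exact permutation p = 0.25), and the smallest p that 4 strains allow is 0.125. The spike-in share was 1.54 ± 0.502% and 1.33 ± 0.325%, and the mitochondrial share 1.4 ± 0.215% and 1.35 ± 0.186%. The thinned gene number was higher in cluster 4 in 3 of 4 strains. With that smallest p, no difference in these measures could have passed 0.05.

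Both clusters had the markers of fibroblasts. The 7 fibroblast markers summed to 12190 to 15338 CPM in cluster 2 against 12403 to 13457 CPM in cluster 4. The receptor gene Pdgfra had 552.5 CPM in cluster 2 against 558.5 CPM in cluster 4. The 6 mesothelial and epicardial markers summed to at most 0.839 CPM in any sum, and the 4 adipocyte markers to at most 0.121 CPM. Traces of other cell types were low but not equal. The 7 endothelial markers summed to 5.22 to 17 CPM in cluster 2 against 21.6 to 116.9 CPM in cluster 4, and Pecam1 was the only one at p under 0.05, which it missed without C57BL6. The 4 smooth muscle markers summed to 34.9 to 313 CPM in cluster 2 against 79.9 to 532.1 CPM in cluster 4, higher in cluster 4 within each strain. Mural markers summed to 98.5 to 313 CPM and 121.1 to 153.8 CPM, cardiomyocyte markers to 30.8 to 135.4 CPM and 45 to 125.95 CPM, immune markers to 8.01 to 40.7 CPM and 0.77 to 36 CPM, and Schwann cell markers to 0.522 to 4.43 CPM and 2.15 to 16.4 CPM. Within these lists the mural Notch3 had 31.3 CPM in cluster 2 against 6.63 CPM in cluster 4 (edgeR, unadjusted p = 0.0173), and the cardiomyocyte Myh6 1.4 against 12.1 CPM (unadjusted p = 0.0375), each without overlap. The part of these traces in the differences below was not tested. Cspg4, the gene behind the Cspg4dsRED reporter and a mural marker, stood at 207.9 CPM in cluster 2 and 47.6 CPM in cluster 4 of Cspg4dsRED and at most 9.01 CPM in any other strain.

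The promoters of 5 genes are shown because the genes are among the 28 named below, and because Hsd11b1 and G0s2 are neighbours and the window of Col4a2 also holds the start of Col4a1. Windows of 300 bases, from 250 before to 50 after the start that RefSeq gives, were taken from RefSeq on GRCm38.p6, in which 18 of the 28 genes named below had an entry. Capitals mark matches, on either strand, to CCAAT. They also mark GGGCGG, the GC box. The third motif in capitals is TATAAA, and no motif contains another. Of all 32851 windows, 37.4% held the first motif, 35.7% the GC box and 13.6% the third. The RefSeq start of Hsd11b1, position 193242360, lies 21715 bases inside the gene as GENCODE annotates it, whose longest form starts at 193264075. The nearest transcript start annotated there is 193242629. For the other 4 genes both starts lie within 29 bases. The window of Col4a2 holds the starts of both Col4a2 and Col4a1, which run in opposite directions from position 11312805 and position 11312826 of chromosome 8.
Hsd11b1 (chr1:193242311-193242610, minus strand): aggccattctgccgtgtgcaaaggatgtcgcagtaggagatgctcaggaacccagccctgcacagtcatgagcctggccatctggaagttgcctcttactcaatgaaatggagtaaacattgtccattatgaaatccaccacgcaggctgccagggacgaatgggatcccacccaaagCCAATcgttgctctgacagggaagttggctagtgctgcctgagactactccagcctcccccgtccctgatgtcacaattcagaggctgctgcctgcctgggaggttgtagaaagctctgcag
G0s2 (chr1:193273139-193273438, minus strand): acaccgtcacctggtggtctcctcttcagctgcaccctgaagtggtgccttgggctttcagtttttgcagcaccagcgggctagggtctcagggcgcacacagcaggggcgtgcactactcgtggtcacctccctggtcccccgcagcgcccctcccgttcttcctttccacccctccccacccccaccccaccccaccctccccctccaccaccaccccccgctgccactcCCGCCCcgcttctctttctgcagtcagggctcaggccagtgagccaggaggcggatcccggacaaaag
Col4a2 with the start of Col4a1 (chr8:11312555-11312854, plus strand): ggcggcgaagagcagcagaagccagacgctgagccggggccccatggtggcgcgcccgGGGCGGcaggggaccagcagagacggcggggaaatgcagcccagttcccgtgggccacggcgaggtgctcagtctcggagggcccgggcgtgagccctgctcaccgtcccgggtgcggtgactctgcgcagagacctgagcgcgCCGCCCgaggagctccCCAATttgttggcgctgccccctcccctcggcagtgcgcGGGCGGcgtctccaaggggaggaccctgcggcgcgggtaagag
Ackr3 (chr1:90203730-90204029, plus strand): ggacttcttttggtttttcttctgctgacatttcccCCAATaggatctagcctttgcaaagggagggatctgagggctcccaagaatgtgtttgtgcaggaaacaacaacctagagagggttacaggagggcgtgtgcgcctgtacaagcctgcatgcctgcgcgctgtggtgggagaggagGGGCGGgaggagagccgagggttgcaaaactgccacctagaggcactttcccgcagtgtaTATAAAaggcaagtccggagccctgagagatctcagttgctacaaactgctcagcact
Gfpt2 (chr11:49793905-49794204, plus strand): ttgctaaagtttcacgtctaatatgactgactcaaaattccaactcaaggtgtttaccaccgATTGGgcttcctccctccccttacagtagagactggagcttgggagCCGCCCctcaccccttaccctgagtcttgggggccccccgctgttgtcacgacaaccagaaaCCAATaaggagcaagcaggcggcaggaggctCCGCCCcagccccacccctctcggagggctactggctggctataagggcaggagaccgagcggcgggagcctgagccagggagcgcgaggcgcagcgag
TATAAA was present in the window of Ackr3 alone among these 5, and GGGCGG in those of G0s2, Col4a2, Ackr3 and Gfpt2. These matches describe the letters of the windows and nothing more.

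The comparison asks which genes set the 2 fibroblast clusters apart in every strain. Of 15614 genes tested, 0 passed an adjusted p of 0.05 in edgeR's quasi-likelihood test, either as higher in cluster 2 (0% of genes) or as higher in cluster 4 (0%), and the smallest adjusted p was 0.0511. At an unadjusted p under 0.05 there were 1079 genes, 6.91% of those tested, where 5% pass if no gene differs. Of these, 458 (2.93%) were higher in cluster 2 and 621 (3.98%) in cluster 4. On the same sums and with adjustment, limma-voom passed 0.679% of genes as higher in cluster 2 and 0.442% as higher in cluster 4, and DESeq2 passed 1.51% and 2.41%. The 4 strains agreed in direction for 1098 genes higher in cluster 2 (7.03%) and 1455 higher in cluster 4 (9.32%). The CPM ranges of the clusters did not overlap for 1.75% of genes in the first direction and 2.42% in the second. The median log2 fold change of all genes was -0.07. The clusters had been drawn by the authors on these same counts, so a p-value here measures how alike the strains were and is no independent evidence that the clusters differ. Genes are named below by the smallest p among those with the same direction in 4 of 4 strains, and none of them is a call at the adjusted threshold.

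The genes with the smallest p as higher in cluster 2 included Hsd11b1, G0s2, Lpl and both collagen IV genes. Hsd11b1 (ENSMUSG00000016194, chromosome 1, 193221634 to 193264075, minus strand), the enzyme that regenerates active glucocorticoid from its inert form, had 1150, 1391, 1018 and 816.3 CPM in cluster 2. In cluster 4 it had 198.8, 114.98, 108.05 and 217.6 CPM. The lowest strain of cluster 2 was thus well above the highest of cluster 4, with a log2 fold change of 2.84 (edgeR, SE 0.30, p = 5.14e-05, adjusted p = 0.0561). G0s2 (ENSMUSG00000009633, chromosome 1, 193272161 to 193273217, minus strand), an inhibitor of triglyceride breakdown, had 619.4, 532.2, 285.1 and 305.96 CPM in cluster 2 against 161.8, 168.3, 87.7 and 105.8 CPM in cluster 4. Its log2 fold change was 1.73 (edgeR, SE 0.15, adjusted p = 0.0511). Measured from the outermost GENCODE start of Hsd11b1, Hsd11b1 and G0s2 lie 8085 bases apart on the same strand. Only Lamb3, on the opposite strand, covers the stretch between them, and it had 0.258 CPM in cluster 2 against 0.0489 CPM in cluster 4. Lpl, the lipase that frees fatty acids from circulating lipoproteins, had 1636, 1801, 1225 and 1137 CPM in cluster 2 against 455.8, 468.6, 354.2 and 552.7 CPM in cluster 4. It was higher in 4 of 4 strains, with a log2 fold change of 1.68 (edgeR, SE 0.17, adjusted p = 0.0545).

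The collagen IV pair moved together. Col4a1 (ENSMUSG00000031502, chromosome 8, 11198423 to 11312826, minus strand), a chain of the basement membrane network, had 904.7, 749.98, 1171 and 904.2 CPM in cluster 2 against 338.3, 286.7, 361.7 and 423.7 CPM in cluster 4. Col4a2 (ENSMUSG00000031503, chromosome 8, 11312805 to 11449287, plus strand), its partner chain, had 644.1, 374.6, 564.8 and 613.1 CPM against 201.9, 115.03, 255.5 and 277.1 CPM. The log2 fold changes were 1.42 (edgeR, SE 0.12, adjusted p = 0.0511) for Col4a1 and 1.44 (SE 0.17, adjusted p = 0.0651) for Col4a2, and in neither gene did the clusters overlap. The annotated genes overlap by 22 bases at their shared start. Col5a3, a minor fibrillar collagen chain, had 310.1 ± 101.9 CPM in cluster 2 against 86.5 ± 33.03 CPM in cluster 4 (n = 4 strains, SD), which is 1.88 as a log2 fold change.

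The other genes named for cluster 2 were of mixed function. The serine protease gene Prss23 had 735.6 ± 209.3 CPM against 244.9 ± 105.1 CPM, and its antisense gene Prss23os 402.9 ± 112.95 CPM against 135.99 ± 58.2 CPM. Prss23os, itself among the 14 genes, lies inside Prss23, and as the strand setting of the counting is not given in the sources used here, their reads cannot be told apart. Aldh1a1, an enzyme of retinoic acid synthesis, had 644.1 ± 107.2 CPM against 318.04 ± 73.4 CPM. The secreted Angptl2 had 974.9 ± 197.7 CPM against 482.5 ± 100.96 CPM, and the membrane dipeptidase gene Dpep1 2240 ± 282.8 CPM against 1311 ± 174.4 CPM. The difference was smallest for Dpep1, with a log2 fold change of 0.80. Ms4a4d, Cdc42ep1, an effector of the small GTPase CDC42, and Colec12, a scavenger receptor, had log2 fold changes of 1.22, 2.22 and 1.28. For all 14 genes named for cluster 2 the CPM ranges of the clusters did not overlap, a property that 1.75% of all genes had in this direction and that the choice of genes favoured.

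The genes with the smallest p as higher in cluster 4 included Gfpt2, Ackr3, Cd248, Comp and Prg4. Gfpt2 (ENSMUSG00000020363, chromosome 11, 49794178 to 49838613, plus strand), an enzyme at the entry of the hexosamine pathway, had 212.9, 307.6, 287.6 and 282.5 CPM in cluster 2 against 822.97, 1014, 895.7 and 751.1 CPM in cluster 4. All 4 strains of cluster 4 were far above all 4 of cluster 2, and the log2 fold change was -1.66 (edgeR, SE 0.13, adjusted p = 0.0511). Ackr3 (ENSMUSG00000044337, chromosome 1, 90203980 to 90216751, plus strand), a scavenging receptor for the chemokine CXCL12, had 411.01, 399.6, 439.1 and 275.5 CPM against 1197, 1321, 1135 and 1112 CPM. Its log2 fold change was -1.64 (edgeR, SE 0.13, adjusted p = 0.0511). Cd248 (chromosome 19, 5068078 to 5070682), the surface protein endosialin, had 233.7, 352.8, 47.5 and 142.996 CPM in cluster 2 against 1344, 1381, 531.5 and 1516 CPM in cluster 4. The Cspg4dsRED strain was lowest in both clusters, and the log2 fold change was -2.82 (edgeR, SE 0.30, adjusted p = 0.0561).

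Several secreted products were low in every strain of cluster 2. Comp (chromosome 8, 70373558 to 70382066), a pentameric matrix protein of cartilage and tendon, had 3.66, 4.63, 2.46 and 14.7 CPM in cluster 2 against 243.6, 388.3, 306.1 and 191.9 CPM in cluster 4. Prg4, the lubricating proteoglycan of joint surfaces, had 8.65, 32, 33.7 and 33.4 CPM against 229.03, 237.4, 407.5 and 384.9 CPM. Ccdc3 had 0.878, 0.522, 2.71 and 11.8 CPM against 93.3, 38.5, 301.3 and 231.8 CPM. The log2 fold changes were -5.75 (SE 0.64) for Comp, -3.65 (SE 0.35) for Prg4 and -5.97 (SE 0.61) for Ccdc3, with edgeR adjusted p-values of 0.0590, 0.0545 and 0.0545. Ccdc3 overlaps the noncoding Gm26776 on the opposite strand, which had 3.02 CPM in cluster 2 against 118.7 CPM in cluster 4, and their reads cannot be told apart. Fn1, fibronectin, had 22.8, 38.7, 45.5 and 58 CPM in cluster 2 against 140.9, 210.1, 524.3 and 337.6 CPM in cluster 4, with a log2 fold change of -2.75.

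Of the remaining genes named for cluster 4, Csrp2, a LIM-domain protein, had a log2 fold change of -2.35, Nbl1, a secreted BMP antagonist, -2.06, and Sulf2, which trims heparan sulfate, -1.99. The microfibril genes Mfap4 and Mfap5 had 1629 ± 211.7 and 1521 ± 347.1 CPM in cluster 4 against 616.6 ± 166.9 and 892 ± 210.2 CPM in cluster 2. Timp3, a matrix-bound metalloproteinase inhibitor, had 1195 ± 104.9 CPM against 597.6 ± 90.9 CPM, and Fstl1 2865 ± 500.3 CPM against 1962 ± 376.8 CPM (SD, n = 4 strains). The clusters did not overlap in 12 of these 14 genes, the exceptions being Fstl1 and Mfap5, beside 2.42% of all genes. The choice of genes favoured this property here too. Timp3 lies within Syn3, and the ends of Mfap4, Prg4 and Sulf2 overlap Mapk7, Tpr and Ncoa3 on the other strand. Syn3 had 163.7 CPM in cluster 2 against 347.2 CPM in cluster 4, and Tpr 124.2 against 141.4 CPM. Mapk7 had 67.4 against 63.5 CPM and Ncoa3 43.5 against 45.2 CPM. Where such genes overlap, their reads cannot be told apart. In 2 cells each, the counts of Mfap4 and Dpep1 exceeded 1 per exonic base.

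**Figure D1:**
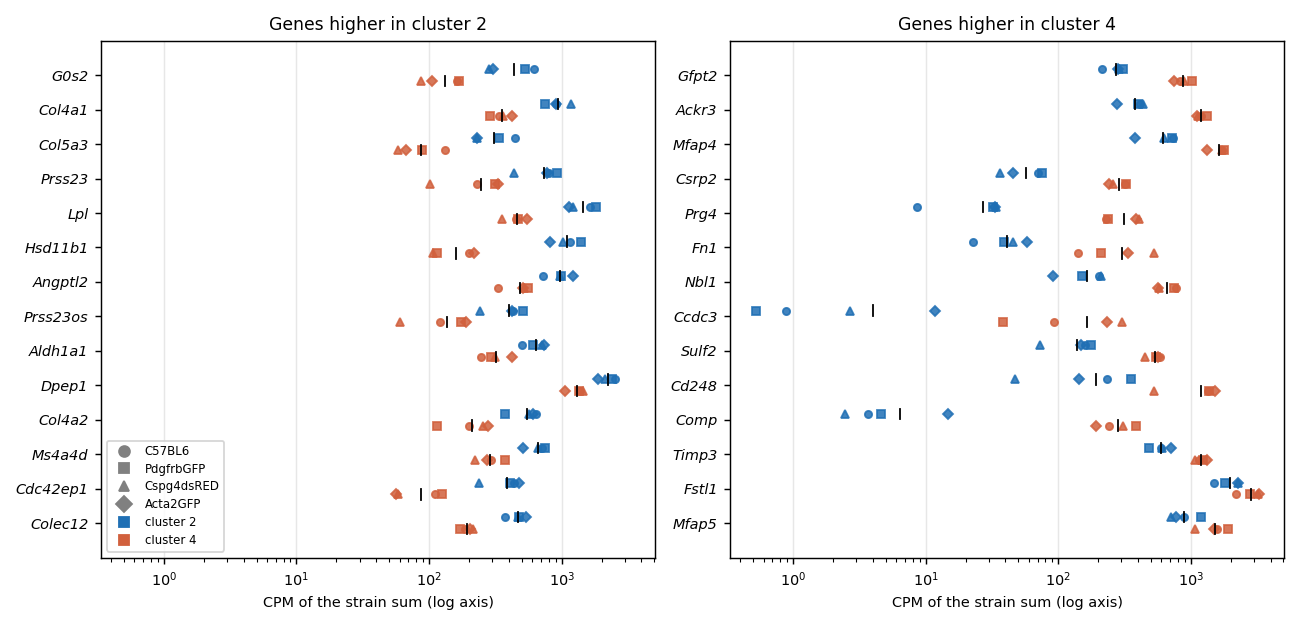
CPM of each strain sum (log axis) for the 14 genes named for cluster 2 (left) and the 14 named for cluster 4 (right), ordered by p. Marker shapes are strains, blue is cluster 2, orange is cluster 4, and the black tick is the mean of 4 strains. Apart from Fstl1 and Mfap5, the blue and orange points of a gene do not overlap.

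Genes known from adventitial and progenitor-like fibroblasts and genes known from resident fibroblasts pointed in opposite directions. These and the later gene lists were chosen with earlier results of these data known, and the clusters were drawn on the same counts. The list counts are thus a description, and the shares of all genes beside them are no fair test. Of the 22 genes on the adventitial list, 21 were tested, 18 had an unadjusted p under 0.05 as higher in cluster 4, beside 3.98% of all genes, 0 as higher in cluster 2, and 3 (Fbn1, Anxa3 and Procr) had neither. Their median log2 fold change was -1.69, beside -0.07 for all genes. Of the 19 genes on the resident list, 10 had a p under 0.05 as higher in cluster 2, beside 2.93% of all genes, 0 as higher in cluster 4 and 9 neither, with a median of 0.66. No member passed the adjusted threshold in edgeR, while limma-voom passed 9 adventitial genes as higher in cluster 4 and 9 resident genes as higher in cluster 2. Summed over the list, the adventitial genes reached 7208, 8136, 8929 and 8018 CPM in cluster 2 against 13612, 16394, 11835 and 17558 CPM in cluster 4. The lowest sum of cluster 4 exceeded the highest of cluster 2. The resident list summed to 25860, 26920, 21049 and 20380 CPM in cluster 2 against 16879, 16632, 17258 and 16052 CPM in cluster 4, again without overlap. High levels of the resident list were not particular to cluster 2, as cluster 5 had 26443 ± 730.4 CPM (n = 2 strains, SD) and cluster 3 ranged from 17097 to 22470 CPM. The endothelial markers that were also higher in cluster 4 stayed at or below 116.9 CPM in sum, and the part of endothelial traces in this difference was not tested. Without Acta2GFP the adventitial count was 13, and without any other single strain it was 16 to 19.

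Within the adventitial list the size of the difference varied. Ackr3, Cd248, Mfap5 and Sema3c had the smallest p. Sema3c, a secreted guidance cue, had 16.9, 16.6, 0.492 and 4.19 CPM in cluster 2 against 190.6, 261.4, 131.97 and 345.0 CPM in cluster 4, a log2 fold change of -5.14 (edgeR, SE 0.84, p = 0.000671, adjusted p = 0.158). Efhd1, a mitochondrial calcium-binding protein, had 20.1 ± 13.4 CPM against 300.99 ± 84.9 CPM. The classical surface markers were present in both clusters. Cd34 had 1721 ± 209.4 CPM in cluster 2 against 2344 ± 293.05 CPM in cluster 4. Pi16 had 867.4, 1073, 2037 and 1434 CPM against 2012, 2367, 1941 and 2776 CPM, so that in Cspg4dsRED the level was slightly lower in cluster 4. Dpp4 was sparse, with 6.43 ± 8.13 CPM in cluster 2 against 46.04 ± 28.3 CPM in cluster 4. Ly6a, the Sca-1 antigen, had 572.9 ± 280.8 CPM and 903.4 ± 165.1 CPM.

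Among the resident genes, Smoc2, a calcium-binding matrix protein, had 2667, 3250, 3161 and 2710 CPM in cluster 2 against 964.7, 1245, 2162 and 1443 CPM in cluster 4. Penk, the enkephalin precursor, had 396.7, 207.997, 179.1 and 248.8 CPM against 176.5, 58.1, 70.7 and 103.6 CPM. In both genes every strain of cluster 2 was above every strain of cluster 4. The chemokine gene Cxcl14 had 797.8, 568.9, 861 and 341.5 CPM against 78.9, 43.2, 490.5 and 101.7 CPM, and here the Cspg4dsRED sum of cluster 4 reached into the range of cluster 2. Sparcl1, Gpx3, Abca8a and Col15a1 also had a p under 0.05. Gpx3, a secreted glutathione peroxidase, exceeded 1 count per exonic base in 12 cells. The general fibroblast genes Pdgfra, Tcf21 and Gsn were close to equal, with log2 fold changes of 0.05, 0.14 and 0.00.

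**Figure D2:**
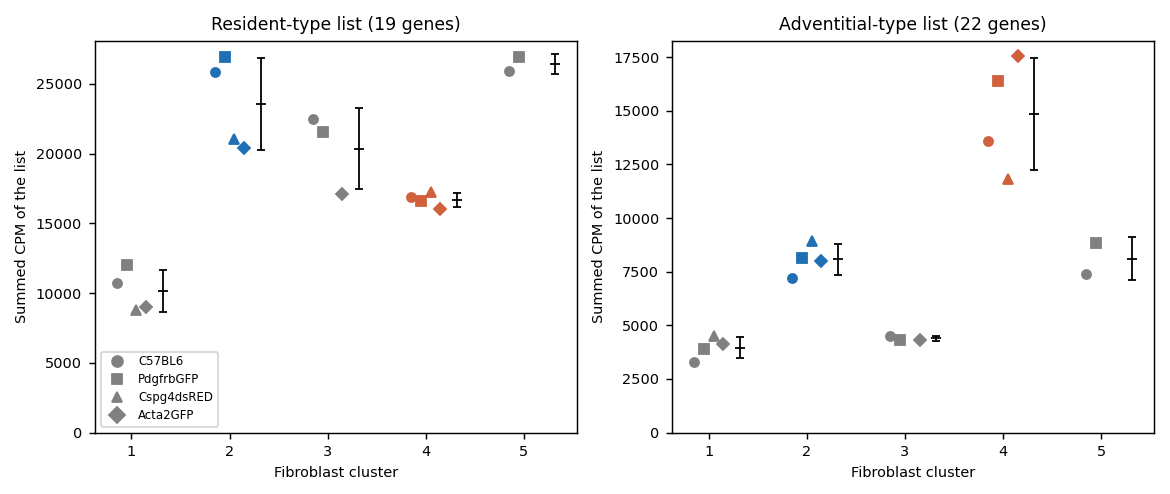
Summed CPM of the resident-type list (left) and the adventitial-type list (right) in each strain for fibroblast clusters 1 to 5. Shapes are strains, blue is cluster 2, orange is cluster 4, and the bar to the right of each cluster is the mean ± SD of its strains. Clusters 2 and 4 do not overlap in either list, and cluster 4 has the highest adventitial sums of the 5 clusters. Resident sums overlap between clusters 2 and 3. In C57BL6 and PdgfrbGFP, the only strains with sums of cluster 5, they are 25926 and 26959 CPM in cluster 5. Cluster 2 has 25860 and 26920 CPM in these strains.

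Basement membrane genes leaned to cluster 2. Of 23 listed genes, 21 were tested, 9 had a p under 0.05 as higher in cluster 2, 2 as higher in cluster 4 and 10 neither, with a median log2 fold change of 0.57. Of all genes 2.93% and 3.98% passed in these directions. The CPM ranges were apart in 7 members higher in cluster 2 and in 0 higher in cluster 4, beside 1.75% and 2.42% of all genes. The 9 were the collagen IV chains Col4a1 and Col4a2, the laminin chains Lama2, Lama4, Lamb1 and Lamc1, the linker Nid2, the heparan sulfate proteoglycan Hspg2 (perlecan) and Col15a1. Lamb1 had 880.8, 866.4, 1096 and 1655 CPM in cluster 2 against 309.6, 168.9, 116.4 and 560.6 CPM in cluster 4, a log2 fold change of 2.18 (edgeR, SE 0.30, p = 0.00026, adjusted p = 0.107). The other beta chain on the list went the opposite way, as Lamb2 had 176.1 ± 113.2 CPM in cluster 2 against 338.3 ± 85.5 CPM in cluster 4 (log2 fold change -1.19, edgeR p = 0.0142). Col4a6, the other gene higher in cluster 4, had 4.66 ± 4.89 CPM and 36.02 ± 27.7 CPM. Lama2 was at 880.4 ± 133.5 CPM and 434.8 ± 152.9 CPM, Lamc1 at 958.8 ± 128.8 CPM and 660.3 ± 106.4 CPM, and Nid2 at 193.8 ± 115.2 CPM and 49.2 ± 18.8 CPM. The count of 9 was 8 to 10 when any 1 strain was left out.

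**Figure D3:**
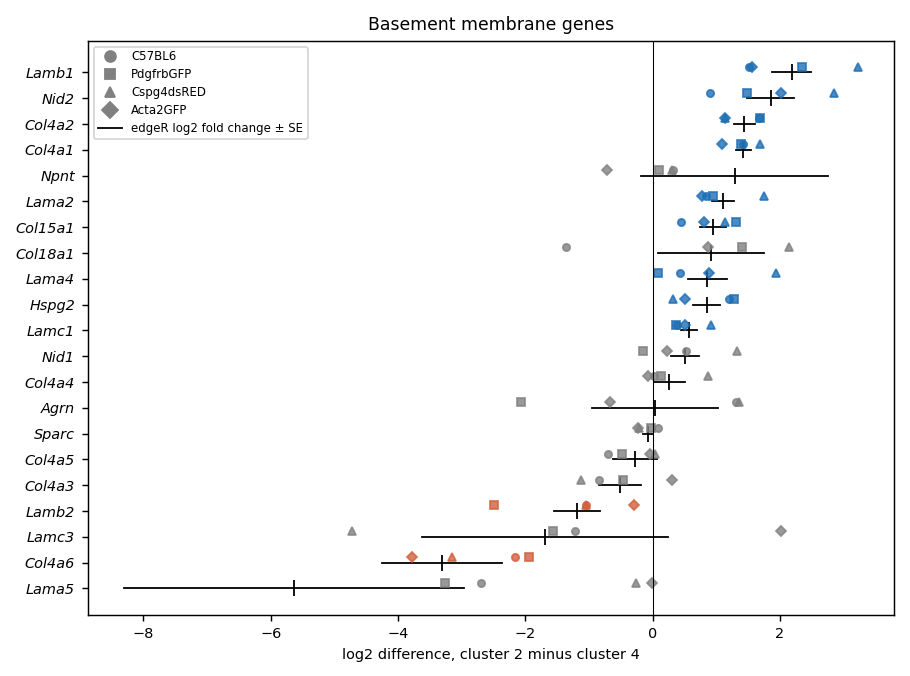
Log2 difference between cluster 2 and cluster 4 for the 21 tested basement membrane genes, as edgeR log2 fold change ± SE (black) and as the log2(CPM + 1) difference in each strain (shapes). Blue and orange mark genes at p under 0.05 as higher in cluster 2 and in cluster 4, and grey the others. Points of the 9 blue genes lie to the right of 0 in all 4 strains.

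The fibrillar collagens other than Col5a3 had a p of 0.05 or more. Among 7 tested fibrillar collagens, Col5a3 alone had a p under 0.05, and Col1a1, Col1a2 and Col3a1 had log2 fold changes of -0.09, -0.13 and -0.13. In the list of network and associated collagens, 4 of 11 tested genes were at p under 0.05 as higher in cluster 2 (36.4%) and 3 as higher in cluster 4 (27.3%), beside 2.93% and 3.98% of all genes. The former were the collagen VI genes Col6a1, Col6a2, Col6a3 and Col6a6, of which Col6a3 had 623.6 ± 178.2 CPM against 234.04 ± 129.7 CPM. The latter were Col14a1, Col12a1 and Col8a1, and Col14a1, which binds the surface of fibrils, had 133.1 ± 63.6 CPM against 356.4 ± 90.1 CPM. Small leucine-rich proteoglycans gave 3 of 12 tested genes as higher in cluster 2 (Prelp, Ogn and Ecm2) and 0 in cluster 4. Lysyl oxidases and collagen processing genes gave 6 and 2 of 18. Without Acta2GFP the network collagens higher in cluster 4 were 1, and without Cspg4dsRED the proteoglycans higher in cluster 2 were 6.

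Elastic fibre, matricellular and myofibroblast-associated genes leaned to cluster 4. Of 17 elastic fibre genes, 6 had a p under 0.05 as higher in cluster 4, namely Mfap4, Mfap5, Fbln1, Ltbp2, Emilin2 and Eln, and 1, Emilin1, as higher in cluster 2, beside 3.98% and 2.93% of all genes. Elastin itself, Eln, had 277.4 ± 97.7 CPM in cluster 2 against 390.6 ± 45.1 CPM in cluster 4. Of 27 matricellular and adhesive genes, 8 were higher in cluster 4 and 4 in cluster 2 at this p. Thbs2, a thrombospondin, was among the 4, with 733.2, 562.99, 829.01 and 1184 CPM in cluster 2 against 141.8, 299.4, 165.3 and 361.5 CPM in cluster 4, whereas Thbs4 was higher in cluster 4, with 21.4 ± 26.03 CPM and 141.4 ± 52.6 CPM. Cilp had 214.2, 451.03, 177.4 and 454.7 CPM in cluster 2 against 691.9, 1503, 1226 and 951.1 CPM in cluster 4. Postn, periostin, had 168.3, 14.2, 245.8 and 304.9 CPM and 546.1, 1511, 1115 and 1090 CPM, and neither gene overlapped between the clusters. Of 18 genes on the myofibroblast list, 11 were higher in cluster 4 and 1, Fap, in cluster 2, with a median of -1.53. The contractile genes Acta2 and Tagln were among the 11, at 127.2 ± 97.6 and 27.95 ± 30.04 CPM in cluster 2 against 232.2 ± 172.1 and 68.2 ± 54.7 CPM in cluster 4. These 2 are also smooth muscle markers, and the other 2 of that list, Myh11 and Cnn1, had log2 fold changes of 0.48 and 0.73 (edgeR, unadjusted p = 0.717 and 0.578). Fap, fibroblast activation protein, had 94, 141.6, 268.4 and 191.5 CPM in cluster 2 against 35.3, 41.9, 39.7 and 3.72 CPM in cluster 4. Several genes stand on more than 1 of these lists, so their counts are not independent.

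The glucocorticoid, lipid and glutathione lists leaned to cluster 2. Of 15 genes of glucocorticoid activation and response, 5 had a p under 0.05 as higher in cluster 2 and 0 in cluster 4, where 2.93% and 3.98% of all genes did. Beside Hsd11b1 these were Cebpd, Tsc22d3, Klf9 and Sgk1, all known targets of the glucocorticoid receptor, and Klf9 had 195.3 ± 28.1 CPM against 90.9 ± 30.1 CPM. The receptor gene Nr3c1 and the targets Fkbp5 and Per1 had log2 fold changes of 0.42, 0.72 and -0.78 and did not reach this p. Of 21 lipid genes, 6 were higher in cluster 2 (G0s2, Lpl, Apod, Abca8a, Pltp and Plin2) and 1, the desaturase Scd1, in cluster 4. Of 29 genes of glutathione and xenobiotic metabolism, 9 were higher in cluster 2 and 4 in cluster 4. Gpx3 of this list, Hsd11b1, G0s2, Lpl and Abca8a were already counted on the resident list, so these counts are not independent of it. Retinaldehyde dehydrogenases split between the clusters. Aldh1a2 had 105.2, 203.8, 275.03 and 319.6 CPM in cluster 2 against 58.3, 37.1, 9.65 and 57.6 CPM in cluster 4, whereas Aldh1a3 had 3.14 ± 3.26 CPM and 33.8 ± 12.1 CPM. Without C57BL6 the 4 genes higher in cluster 4 became 2. Gsta3, a glutathione transferase, had 331.4 ± 68.5 CPM against 97.7 ± 45.9 CPM.

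Counts in the immune-related lists changed when 1 strain was left out. Of 24 interferon response and antigen presentation genes, 9 had a p under 0.05 as higher in cluster 2 and 0 in cluster 4 (2.93% and 3.98% of all genes), with a median log2 fold change of 0.73. Without C57BL6 the count was 2, and without Acta2GFP it was 6. The class I gene H2-K1 had 1065, 944.4, 1758 and 589.9 CPM in cluster 2 against 614.7, 450.9, 908.7 and 567.9 CPM in cluster 4, so the difference within Acta2GFP was small. Ifitm1 was the most uneven, with 65.7, 40.2, 88.1 and 31.3 CPM against 0.618, 4.47, 1.47 and 6.07 CPM. Of 22 tested NF-kB targets, cytokines and chemokines, 5 were higher in cluster 2 (Cxcl1, Cxcl14, Ccl7, Cx3cl1 and Ccl11) and 0 in cluster 4, and the count was 3 without C57BL6 or without Acta2GFP. Complement genes went both ways. C1s1 and C1ra, proteases of its first component, had log2 fold changes of 0.97 and 0.99. The terminal component C7, the regulators Cd55 and Cd59a and clusterin, Clu, were among those with a p under 0.05 as higher in cluster 4, and C7 had 109.8, 88.5, 41.1 and 64.3 CPM in cluster 2 against 363.4, 273.4, 332.3 and 349.5 CPM in cluster 4.

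Signalling and regulator lists are read against the 2.93% and 3.98% of all genes that were higher in cluster 2 and in cluster 4 at this p. Wnt genes gave 1 of 23 tested as higher in cluster 2, Frzb, and 4 as higher in cluster 4, among them the secreted Dkk3 with 47.6, 23.7, 148.6 and 69.9 CPM against 509.7, 501.9, 250.3 and 345.7 CPM. TGF-beta and BMP genes gave 1 and 6 of 26 (3.85% and 23.1%), with Tgfb3 at 136.7 ± 27.2 CPM in cluster 2 against 282.4 ± 56.98 CPM in cluster 4. The BMP modulator Bmper was the 1 higher in cluster 2. Without Cspg4dsRED the 6 became 3, and without C57BL6 the 4 Wnt genes became 2. Transcription factors gave 2 and 6 of 30 (6.67% and 20%), and leaving out C57BL6, PdgfrbGFP, Cspg4dsRED or Acta2GFP turned the 6 into 1, 2, 3 and 4. Insulin-like growth factor genes gave 2 and 2 of 11, angiogenic and trophic factors 2 and 2 of 24, guidance genes 1 and 3 of 25, ion channels and solute carriers 1 and 2 of 21, and matrix proteases and inhibitors 6 and 5 of 28 (21.4% and 17.9%). The counts of 1 to 5 genes in these lists often changed by over 1.5 times when 1 strain was left out, and the 5 protease genes became 3 without Acta2GFP or without C57BL6. The gap junction gene Gja1 was in the channel list, with 2.33, 18.8, 1.23 and 24.4 CPM in cluster 2 against 80.3, 61.2, 222.8 and 147.3 CPM in cluster 4.

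Some lists often move with the handling of cells. Immediate early genes gave 5 of 30 as higher in cluster 2 (16.7%) and 4 in cluster 4 (13.3%), with a median of -0.06, beside 2.93% and 3.98% of all genes. After adjustment limma-voom passed 7 of them as higher in cluster 2 and 1 in cluster 4. Without C57BL6, without PdgfrbGFP or without Acta2GFP the 5 became 2. Among them Nr4a1 had 476.7 ± 191.02 CPM against 932.5 ± 333.5 CPM, and Jun 1613 ± 379.8 CPM against 1320 ± 251.1 CPM. Heat shock genes gave 1 and 0 of 13, iron and copper genes 1 and 0 of 14, and cell cycle genes 0 and 2 of 9. Cytosolic ribosomal protein genes gave 0 and 0 of 82, mitochondrially encoded genes 0 and 0 of 12, and oxidative phosphorylation subunits 0 and 1 of 78 at an unadjusted edgeR p under 0.05. All 4 strains were higher in cluster 4 for 21 ribosomal protein genes and in cluster 2 for 0, and the same counts were 19 and 3 for oxidative phosphorylation subunits, where 9.32% and 7.03% of all genes had these properties. The median log2 fold change of either list was -0.08, beside -0.07 for all genes.

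**Figure D4:**
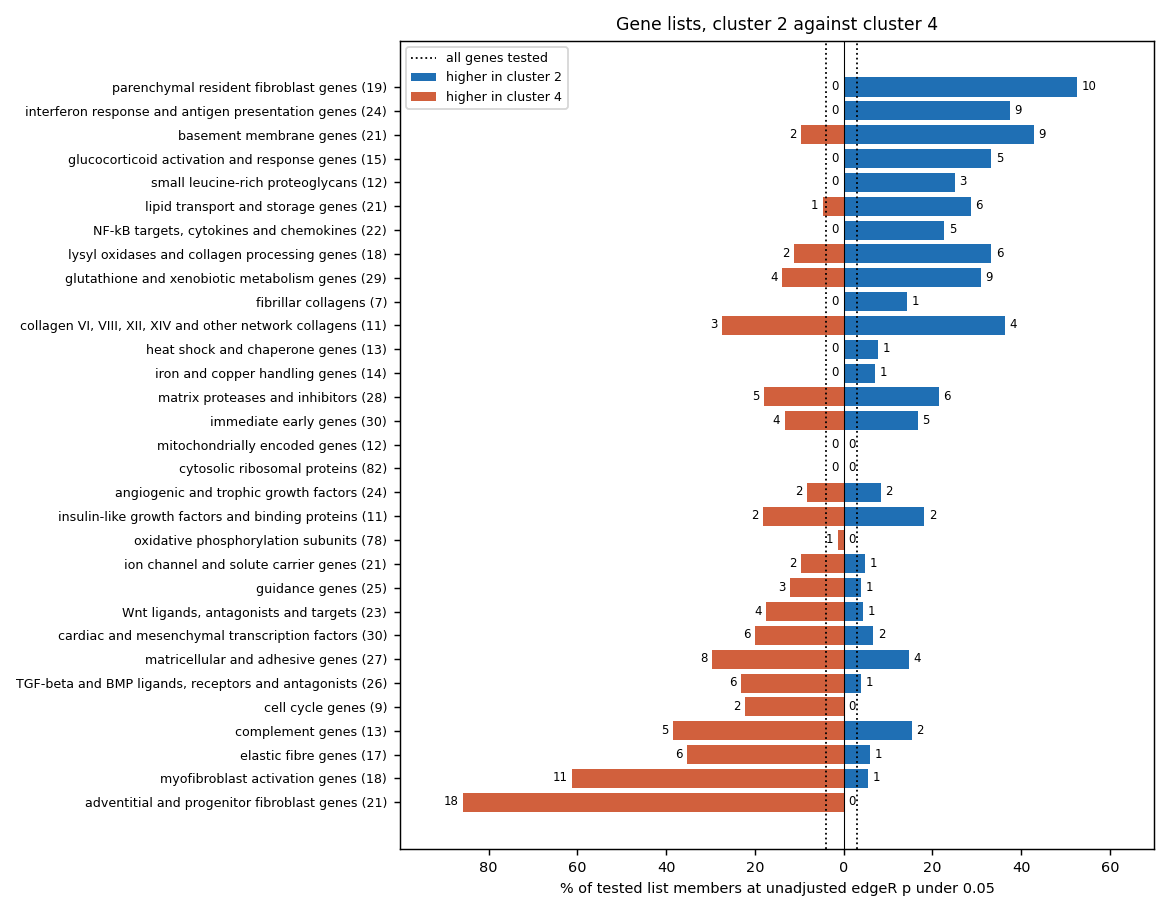
Share of the tested members of each list (number tested in brackets) at unadjusted edgeR p under 0.05, to the right for higher in cluster 2 and to the left for higher in cluster 4. Numbers at the bars are gene counts, and dotted lines are the shares of all genes, 2.93% and 3.98%. The adventitial and myofibroblast lists reach farthest to the left and the resident and basement membrane lists farthest to the right.

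Single cells showed how evenly these genes were spread. Each cell was thinned to 50000 counts, and a cell was counted when it held 5 or more of them, which is 100 CPM. Hsd11b1 reached this level in 91.2 ± 7.8% of cells of cluster 2 and 29.9 ± 5.03% of cluster 4 (SD, n = 4 strains). Without thinning, any count of Hsd11b1 was present in 99.5% and 86.3% of cells. For Lpl the shares were 91.5 ± 4.43% and 60.4 ± 11% and for G0s2 82 ± 7.74% and 41.4 ± 3.71%, so many cells of cluster 4 held these transcripts at a lower level. Cd248 reached the level in 27 ± 3.12% of cells of cluster 2 and 79.4 ± 13.9% of cluster 4, and Ackr3 in 47 ± 3.58% and 83.7 ± 10.7%. Pi16 was common in both clusters, at 85 ± 13.6% and 96.9 ± 4.45%.

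Other genes of cluster 4 reached this level in fewer of its cells. Sema3c reached 100 CPM in 43.3 ± 10.9% of cells of cluster 4 and 2.18 ± 1.67% of cluster 2, Efhd1 in 45.5 ± 10.5% and 4.35 ± 4.57%, and Prg4 in 33.7 ± 8.27% and 8.15 ± 3.46%. Acta2GFP had the highest shares of Sema3c and Efhd1 in cluster 4, at 57.5% and 60%. Comp reached the level in 20.5 ± 5.23% and 1.32 ± 2.63% and Ccdc3 in 14.6 ± 10.8% and 0.658 ± 1.32%. Without thinning, any count of Sema3c, Efhd1 and Prg4 was found in 60.1%, 63.5% and 70% of cells of cluster 4 and in 28.3%, 42.5% and 57.1% of cluster 2. Any count of Comp was found in 62.7% of cells of cluster 4 and 54.3% of cluster 2, so its difference in sum lay in the cells with much of it. The richest 10% of the cells of cluster 4 held 78.1% of the thinned Comp counts, 95.2% of those of Ccdc3 and 72.1% of those of Fn1, but 25.6% of those of Cd248. Some pairs of these genes shared cells more often than others. Of 45 cells of cluster 4 with Comp at this level, 60% also had Cilp and 48.9% Sema3c, beside 36.5% and 39.1% of all its cells. Fn1 was held by 26.7% of them, beside 27% of all cells, and Dpp4 by 0 of the 45, beside 9.01% of all cells. Of the 21 cells with Dpp4, 12 had Sema3c and 12 had Fn1, which is 57.1% each, beside 39.1% and 27% of all cells. Ccdc3 was in 0 of the 21, beside 10.7% of all cells. Counting error alone allows up to about 14.3% for 0 of 21 cells, above that 10.7%, and up to about 6.67% for 0 of 45. These counts of cells come from 4 strains and were not tested.

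**Figure D5:**
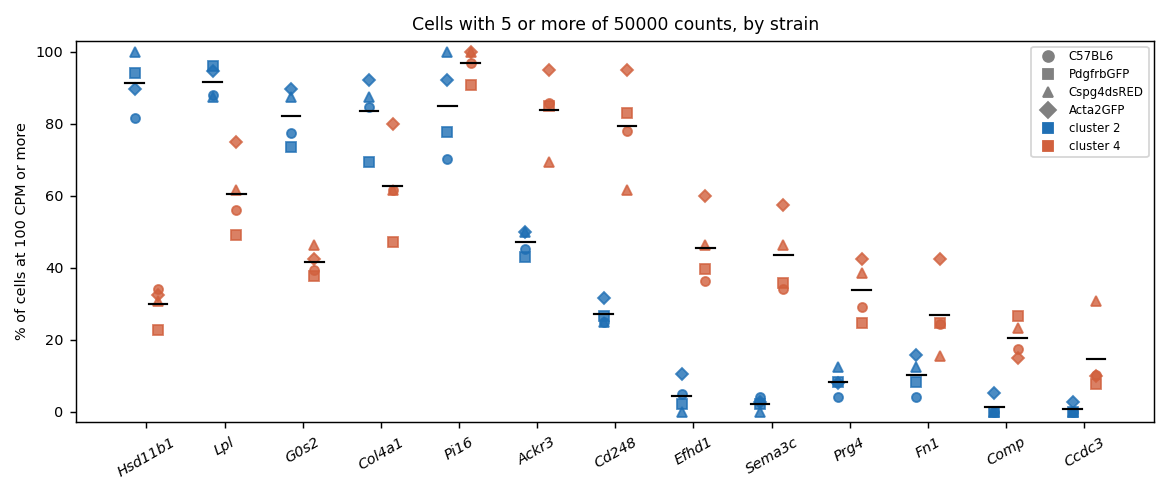
Share of cells with 5 or more of 50000 thinned counts (100 CPM or more) of 13 genes in each strain, in blue for cluster 2 and in orange for cluster 4. Shapes are strains and black bars are means of 4 strains. Hsd11b1 and Cd248 separate the clusters in opposite directions, and Comp and Ccdc3 stay below 31% in every strain of cluster 4.

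The levels in the other fibroblast clusters placed these differences. The means of clusters 2 and 4 covered 4 strains, but cluster 5 had only C57BL6 and PdgfrbGFP in the sums and cluster 3 lacked Cspg4dsRED. The positions of clusters 5 and 3 given here thus rest on unlike sets of strains. Cluster 5, with 2 strains in the sums, had mean levels between clusters 2 and 4 for 11 of the 14 genes of cluster 2 and for 11 of the 14 genes of cluster 4. Hsd11b1 had 938.4 ± 267.5 CPM in cluster 5 (n = 2 strains) and 295.3 ± 33.9 CPM in cluster 3 (n = 3 strains). Its means over 4 strains were 1093.8 CPM in cluster 2 and 159.9 CPM in cluster 4. Cluster 3 lay between the 2 clusters for 12 of the 14 genes of cluster 2 and below both for 7 of the 14 genes of cluster 4. Cluster 1, with 70 cells, stood above both for 6 genes of cluster 4, below both for 5 and between them for 3, and it was below both for 10 of the 14 genes of cluster 2. Comp had 1671 ± 639.5 CPM there, Prg4 2181 ± 1000 CPM, Timp3 3416 ± 941.9 CPM and Ccdc3 468.2 ± 220.9 CPM (SD, n = 4 strains). Cd248 went the other way, with 36.8 ± 37.2 CPM in cluster 1, below the 194.2 ± 130.2 CPM of cluster 2. The 7 valve interstitial markers, which cover the genes by which the study placed cluster 1, summed to 6478 to 8160 CPM in cluster 1, 129.4 to 294.3 CPM in cluster 2 and 421.3 to 738.5 CPM in cluster 4, without overlap. The difference between clusters 2 and 4 lay mainly in Comp, with 6.36 and 282.5 CPM. Fmod had 22.9 and 83.2 CPM and Scx 0.201 and 1.56 CPM, with overlapping ranges, and Thbs1, Wif1 and Cyp2e1 had 163.1 and 163.1, 1.96 and 2.76, and 3.24 and 2.35 CPM. These levels are a description, as the clusters were drawn on the same genes.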

How the data were processed

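Per the labels and the study's methods, single heart cells were sequenced with Smart-seq2 as single reads of 50 bases. The authors demultiplexed with bcl2fastq, trimmed reads, mapped them to GRCm38 (mm10) with TopHat2 and Bowtie or Bowtie2, removed doublets with samtools and counted reads per gene with featureCounts of Subread. The strand setting, the annotation release and what the samtools step removed are not given in the sources used here. The sort gated against doublets, and the authors removed cells with very many expressed genes as potential doublets. The deposited values are read counts of each gene in each cell that had not been normalized, and the authors had removed cells of low quality and drawn the clusters with pagoda2 on the same counts. All cells of the 2 clusters were used, 219 of cluster 2 (124 of C57BL6) and 233 of cluster 4 (127 of C57BL6), beside 70, 112 and 292 cells of clusters 1, 3 and 5. No further search for doublets was made.

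The table held 46609 features, of which 92 were spike-ins (1.47% of the counts of the 2 clusters), kept out of library sizes and tests. Coordinates came from the GENCODE M21 annotation of GRCm38, which matched 46005 of 46517 genes. Counts were summed per strain and cluster. The sums were fitted with edgeR 4.0.16 in R 4.3.3 (quasi-likelihood F test, TMM, filterByExpr with a minimum count of 10, strain as a block) and p-values adjusted by the Benjamini-Hochberg method. Standard errors were derived from the fold change and F. Strain pairs come from the same plates, except 1 cell. The deviations of the 2 sums of a strain correlated at 0.105 to 0.202 across genes, above every pairing of different strains. Deviations were taken from the mean of each cluster, which lowers the other pairings, so this order is partly built in. Differences within a strain used a pseudocount of 1 CPM.

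Members and gene lists were chosen with earlier results of these data known. The planned rule named genes by adjusted p under 0.05 and gave 0 genes. In its place, and after values were seen, the 14 genes per direction with the smallest p were named, given the same direction in 4 of 4 strains, detection in at least 30% of the cells and at least 20 CPM in the higher cluster. Genes without a proper symbol were not named. List members named beyond these were also chosen with their values seen. The 31 gene lists and 10 marker lists are counted at unadjusted p, without a set test. Alternatives were other normalization, filter, weights, tools (limma 3.58.1, DESeq2 1.42.0), thinned cells, plates as replicates and leaving out each strain. A minimum mean of 10 CPM was added after seeing the data.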

Additional observations from a re-analysis of the deposited data

Results flagged for a closer look

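For the 28 named genes, the 4 strains of each cluster were searched for a value far from the other 3 by Dixon's test, which marks about 1 in 20 groups by chance. Of 56 groups, 2 were marked, where 2.8 would be marked by chance. Mfap4 in cluster 4 had 1314 CPM in Acta2GFP and 1704 to 1769 CPM in the other strains. Prg4 in cluster 2 had 8.65 CPM in C57BL6 and 32 to 33.7 CPM in the other strains. In both cases the value stayed on its own cluster's side of the other cluster.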

How the results depend on the processing

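The adjusted calls depended on the setting. None of the 28 named genes changed direction under the 13 refits. Their choice by smallest p and the same direction in every strain favoured this, so it says little of stability. As a share of the genes tested, those higher in cluster 2 and in cluster 4 made up 0% and 0% in edgeR with strain as a block and with DESeq2 size factors. Also requiring a log2 fold change of 1 could only leave 0% and 0% and says nothing of stability. The shares were 0.113% and 0.0933% with no filter on low counts, 0.0897% and 0.0961% with each cell given the same weight, 0.254% and 0.317% with cells thinned to 50000 counts, 0.223% and 0.13% with plates as replicates, and 0.142% each with only genes at a mean of 10 CPM or more, a setting chosen after seeing the data. DESeq2 with the block gave 1.51% and 2.41%, and limma-voom with the block 0.679% and 0.442%. Without the block, edgeR gave 0.0225% and 0.0899%, which are 3 and 12 genes. With 1 strain left out the shares ran from 0% to 0% and from 0% to 0.00655%, the last being 1 gene without Cspg4dsRED. At unadjusted p the shares were 2.93% and 3.98%, against 2.52% and 2.85% without the block, 5.17% and 7.92% in DESeq2, 4.81% and 5.29% in limma-voom, and 2.23% to 3.64% and 2.93% to 4.48% with 1 strain left out. All 28 named genes passed the adjusted threshold in DESeq2, in limma-voom, with no filter and with thinned cells, 27 with plates, 26 at a mean of 10 CPM, 20 with equal weights, 10 without the block and 0 with any strain left out. The interferon count of 9 was 19 in limma-voom, 5 without the block, 6 with thinned cells and 2 to 10 with 1 strain left out, lowest without C57BL6. The adventitial, resident and basement membrane counts of 18, 10 and 9 were 13 to 19, 10 to 11 and 8 to 10 with 1 strain left out and within 1.5 times elsewhere. The cause of these shifts was not tested. The smallest sum holds 8 cells, which limits what can be detected in low genes.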
